A study of Mus musculus with 4 samples.

Results

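The type I interferon-stimulated genes described here are 41 mouse genes chosen by symbol, and all 41 were found among the 55414 genes of the count files. Each was followed in single liver cells of 2-month-old mice of 2 genotypes, called S/S and A/A. What the letters stand for is not given in the labels. There were 4 libraries: 1 from S/S mice and 1 from A/A mice 3 h after an intraperitoneal injection of 500 ng TNF, and 1 from S/S mice and 1 from A/A mice at baseline. Each library pooled the cells of 2 mice, so a group is 1 sample: no test is possible, no p-value is given, and every interval below is an exact 95% interval that covers counting error only. Livers were perfused and digested, parenchymal cells were depleted by slow centrifugation and dead cells by Ficoll, and live cells were sorted with enrichment of macrophages. The sort therefore sets the share of each cell type.

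Type I interferons signal through a receptor on nearly every cell to transcription factors, STAT2 and IRF9 among them, that bind the interferon-stimulated response element of target promoters. The induced proteins sense foreign nucleic acid, block viral RNA and its translation, tag proteins with ISG15, and hold back virus entry and release; IRF7 and USP18 feed back on the response, the one as an amplifier and the other as a brake. In liver, Kupffer cells, monocytes, plasmacytoid dendritic cells and sinusoidal endothelium all carry these genes. TNF is a different cytokine that acts mainly through NF-kB, so the comparison asks how the interferon programme of each cell type stood 3 h after TNF and whether it differed between the genotypes.

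The promoters of 4 members are shown because these genes carry the differences described below and because each holds the core of the response element. The windows are those of RefSeq on GRCm38.p6, from 250 bases before to 50 after the gene start, 5′ to 3′ on the gene's own strand; the study's own build was mm39, so these positions do not apply to its alignments. Capitals mark each match to GAAA, any 2 bases and GAAA again, or to the reverse complement TTTC, any 2 bases and TTTC, overlapping matches included. The windows are chr19:34640639-34640938 on the plus strand, chr4:156200769-156201068 on the minus strand, chr12:26456403-26456702 on the minus strand and chr8:71537423-71537722 on the minus strand.
Ifit1: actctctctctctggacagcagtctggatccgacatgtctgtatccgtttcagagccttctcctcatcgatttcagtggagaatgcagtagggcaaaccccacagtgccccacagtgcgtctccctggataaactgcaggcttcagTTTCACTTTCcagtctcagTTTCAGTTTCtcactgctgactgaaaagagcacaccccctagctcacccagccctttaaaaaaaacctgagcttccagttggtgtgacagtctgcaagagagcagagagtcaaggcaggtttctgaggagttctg
Isg15: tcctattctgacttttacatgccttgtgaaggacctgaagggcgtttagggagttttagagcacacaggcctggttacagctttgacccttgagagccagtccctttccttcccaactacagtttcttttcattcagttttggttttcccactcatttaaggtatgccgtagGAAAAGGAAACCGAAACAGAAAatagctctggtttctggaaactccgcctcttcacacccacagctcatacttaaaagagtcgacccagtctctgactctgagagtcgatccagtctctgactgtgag
Rsad2: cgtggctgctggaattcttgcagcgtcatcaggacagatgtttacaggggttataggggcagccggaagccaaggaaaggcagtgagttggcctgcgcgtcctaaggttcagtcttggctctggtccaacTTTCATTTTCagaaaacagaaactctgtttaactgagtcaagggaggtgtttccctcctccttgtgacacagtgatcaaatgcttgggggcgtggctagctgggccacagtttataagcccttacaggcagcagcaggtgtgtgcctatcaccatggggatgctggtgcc
Bst2: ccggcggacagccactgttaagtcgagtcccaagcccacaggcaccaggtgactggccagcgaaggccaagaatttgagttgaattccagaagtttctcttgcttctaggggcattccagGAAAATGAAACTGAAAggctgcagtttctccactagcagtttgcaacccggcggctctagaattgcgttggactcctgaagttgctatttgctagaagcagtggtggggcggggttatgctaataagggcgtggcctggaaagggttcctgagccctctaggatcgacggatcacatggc
A promoter was listed for 29 members. The motif lay in the first listed window of 14 of these 29 (48.3%), against 943 of 27025 genes in all (3.49%). Ifit1 and Bst2 had 2 matches, Isg15 had 3 that run into each other, and Rsad2 had 1. Mx1, Mx2, Oas2, Usp18, Ifi27l2a, Dhx58, Rtp4, Zbp1, Parp9, Parp14, Ifi204 and Ly6e had no entry. A match describes these letters and says nothing of binding.

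Counts are raw molecules (UMIs). The libraries held 54999906, 53556431, 30724027 and 21088801 UMIs in the order S/S TNF, A/A TNF, S/S baseline and A/A baseline, and 5528, 6452, 4366 and 2830 cells passed the filters, with a median of 4723.5 to 6504.5 UMIs per cell. Cells were put into classes by marker genes that contain no member, and every class compared carried its own markers. A level below is a class's UMIs of a gene over all UMIs of that class in one library, scaled to the usual CPM; the 3′ kit counts each captured molecule once whatever the gene's length. A class was compared where both libraries had at least 30 cells, a member where the pair held at least 20 UMIs, and "over 2-fold" refers to the ratio after adding 1 CPM to each side. Folds printed with an interval are plain ratios of CPM. The classical monocyte-like class of the A/A baseline library had 40 cells. Per the submitters' processing notes, both TNF libraries were made with Cell Ranger 6.1.2 and both baseline libraries with 7.1.0, so version and treatment cannot be told apart.

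The summed level of the members differed by cell class before any comparison of conditions. Genes of a few small membrane proteins took much of it: Ly6e (ENSMUSG00000022587.15), a GPI-anchored protein that modifies virus entry, Bst2 (ENSMUSG00000046718.9), the tetherin that holds budding virions on the cell, and Ifi27l2a (ENSMUSG00000079017.4), a small hydrophobic interferon-induced protein. Plasmacytoid dendritic cell-like (pDC-like) cells had the most Bst2, at 2466 CPM in the S/S TNF library and 2337 CPM in the A/A TNF library, against 3576 CPM in the S/S baseline library and 2486 CPM in the A/A baseline library. Bst2 is also a common surface marker of mouse plasmacytoid dendritic cells, and the 4 libraries differed by less than 2-fold there. Without Ly6e, Bst2 and Ifi27l2a, the other 38 members summed in classical monocyte-like cells to 1832 CPM in the S/S TNF library and 1614 CPM in the A/A TNF library, against 5379.6 and 5498 CPM in the S/S and A/A baseline libraries. In hepatocyte-like cells the same sum was 727 CPM in the S/S TNF library and 924 CPM in the A/A TNF library, against 661 and 356 CPM in the S/S and A/A baseline libraries.

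Erythroid-like cells, sorted along with the others, stood apart by which members they held. Isg15, Rsad2 and Isg20 made up 92.7% of the members' UMIs there in the S/S TNF library, 87.3% in the A/A TNF library and 87.5% in the S/S baseline library. Isg15 reached 2399 CPM in the S/S TNF library and 1269 CPM in the A/A TNF library, against 2335 CPM in the S/S baseline library. Rsad2 had 2286, 999 and 1869 CPM in the same libraries. These cells numbered 687, 42 and 321, and 14 in the A/A baseline library, which was too few to compare. After TNF, Isg15 was 1.89-fold higher (1.73 to 2.07) and Rsad2 2.29-fold higher (2.07 to 2.54) in S/S erythroid-like cells, set against those of A/A. By TNF in S/S, 7 of 32 members were over 2-fold lower in these cells, against 27.2% of all genes, and 0 higher, against 6.40%. Ifi27l2a was 9.06-fold lower (7.13 to 11.6) after TNF in S/S.

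**Figure D1:**
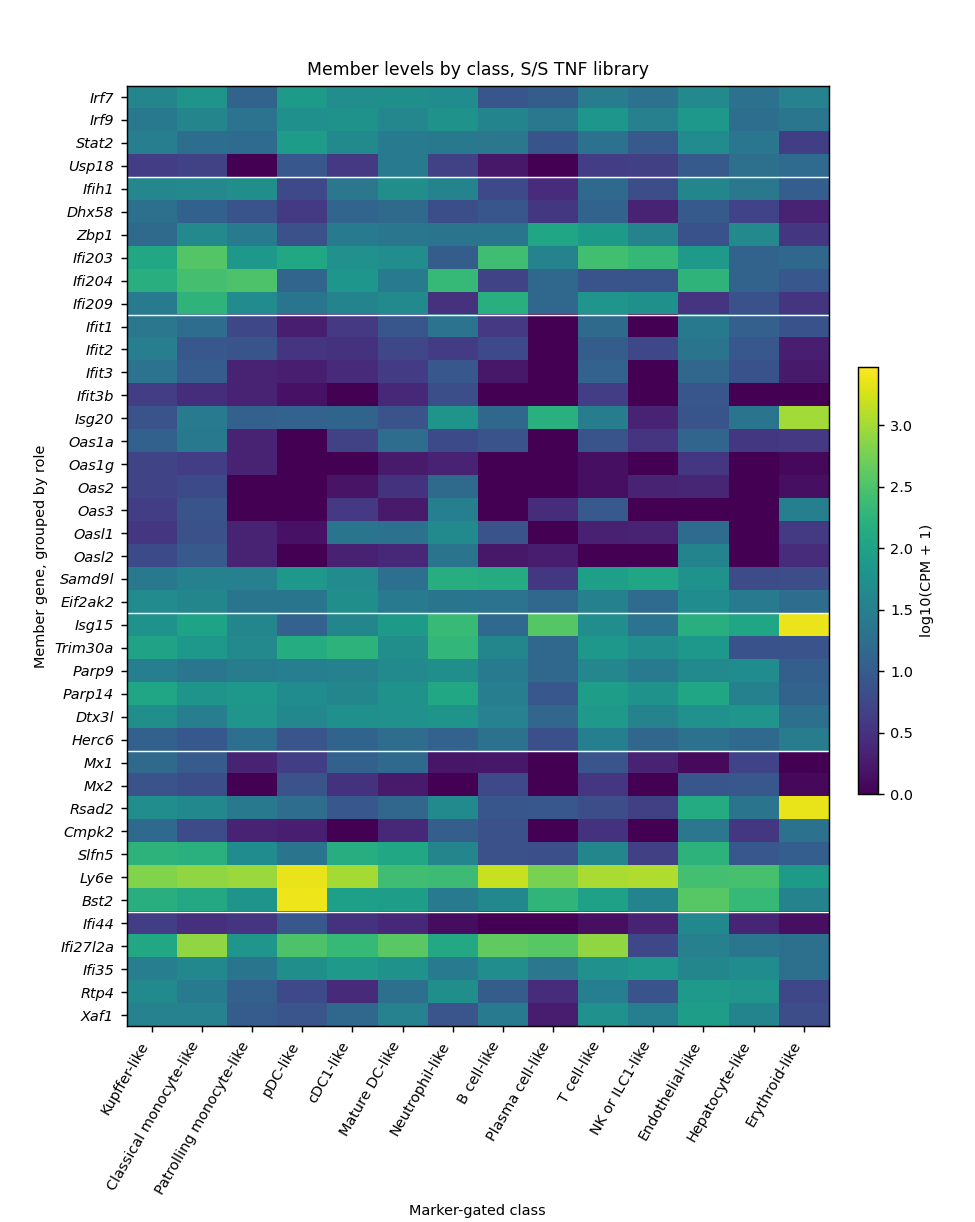
Level of each member (log10 of CPM plus 1, colour) in each marker-gated class of the S/S TNF library with at least 30 cells; members run down the page grouped by role. Isg15, Rsad2 and Isg20 stand out in the erythroid-like column, and Bst2 and Ly6e in the pDC-like column.

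**Figure D2:**
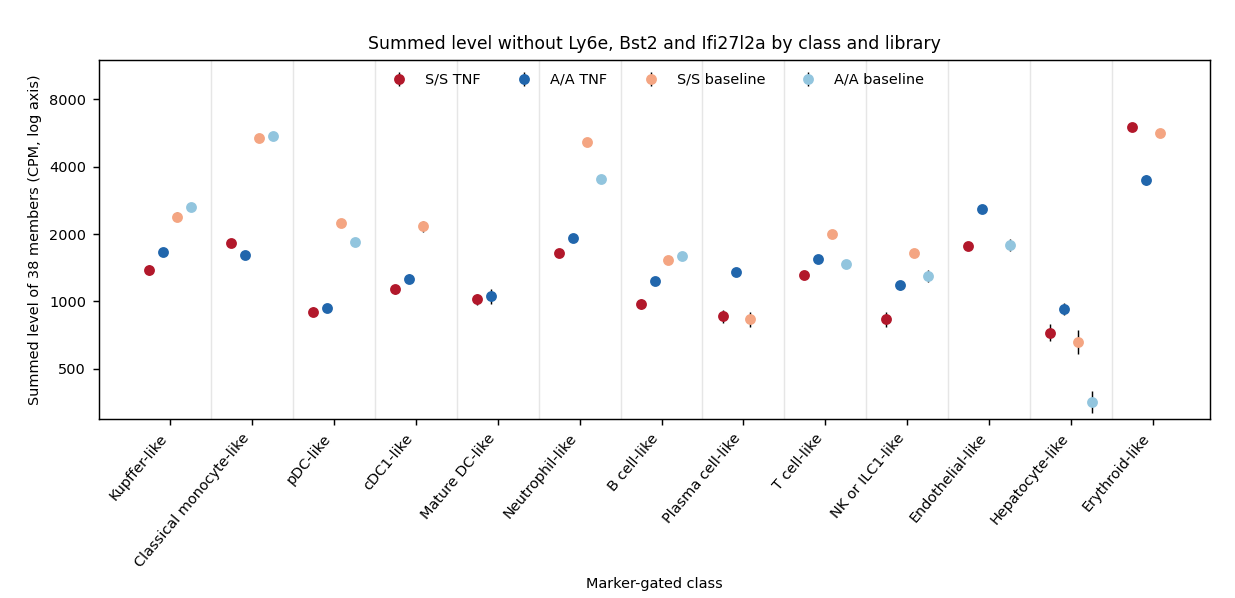
Summed level of 38 members, without Ly6e, Bst2 and Ifi27l2a (CPM, log axis), in each class with at least 30 cells, 1 point per library with its exact 95% counting interval. In classical monocyte-like cells the TNF points, 1832 CPM in S/S and 1614 CPM in A/A, lie below both baseline points, while in hepatocyte-like cells the A/A TNF point, 924 CPM, lies above the A/A baseline point, 356 CPM.

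Of the classes compared, classical monocyte-like cells had the lowest median of the members after TNF relative to baseline, in both genotypes. In S/S, 35 of 41 counted members were over 2-fold lower, against 23.0% of all genes tested in these cells, and none was over 2-fold higher, against 10.6%. In A/A, 34 of 40 were over 2-fold lower, against 20.6% of all genes, and none over 2-fold higher, against 17.7%. The median log2 ratio of the members was -1.94 in S/S and -2.05 in A/A, where the median over all genes was -0.24 in S/S and 0.00 in A/A. Per cell, the 38 members made up a median of 13.3 of 10000 UMIs in the S/S TNF library and 13.3 in the A/A TNF library, against 37.5 and 23.2 in the S/S and A/A baseline libraries. The middle cell was lower after TNF in both genotypes. With cells thinned to 1000 UMIs, 11 members were left to count in A/A, with a median of -0.71 and 5 over 2-fold lower, while the S/S median was -1.84. Neutrophil markers in this class summed to 1859 CPM in the S/S TNF library and 1199 CPM in the A/A TNF library, against 889 CPM in the S/S baseline library and 228 CPM in the A/A baseline library, and their part in the result was not tested.

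Among the regulators, 4 of 4 were over 2-fold lower in S/S and 3 of 4 in A/A. Irf7 (ENSMUSG00000025498.16), the transcription factor that amplifies interferon production, had 61.8 CPM in the S/S TNF library and 31.6 CPM in the A/A TNF library, against 207 CPM in the S/S baseline library and 115 CPM in the A/A baseline library. It was 3.35-fold lower (3.04 to 3.69) after TNF in S/S and 3.65-fold lower (2.75 to 4.78) in A/A. Usp18, which strips ISG15 from proteins and shuts off the receptor, was 14.3-fold lower (10.5 to 19.7) in S/S and 16.1-fold lower (9.85 to 26.7) in A/A. Stat2, a transcription factor with a strong activation domain, had a log2 ratio of -1.94 in S/S and was 5.28-fold lower (3.96 to 6.98) in A/A. Irf9, its DNA-binding partner, was the exception of the group: it was 2.13-fold lower (1.84 to 2.45) in S/S, while the A/A libraries gave 51.1 CPM after TNF and 47.8 CPM at baseline, a ratio of 1.07 (0.733 to 1.62).

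Of the role groups the sensors had the smallest share over 2-fold lower, 2 of 6 in S/S and 3 of 6 in A/A. Dhx58, the helicase LGP2 that tunes RNA sensing, was 3.17-fold lower (2.50 to 4.01) in S/S and 4.96-fold lower (2.99 to 8.00) in A/A. Zbp1, a sensor of Z-form nucleic acid, was 3.37-fold lower (3.00 to 3.79) in S/S and 4.15-fold lower (3.23 to 5.31) in A/A. Ifih1, the double-stranded RNA sensor MDA5, was 1.99-fold lower (1.73 to 2.28) in S/S and 2.57-fold lower (1.94 to 3.36) in A/A. Genes of the PYHIN family of nucleic-acid-binding proteins differed less: Ifi203 was 1.13-fold lower (1.06 to 1.19) in S/S, less than the shift of the median gene, and 1.27-fold lower (1.12 to 1.44) in A/A, while Ifi204 and Ifi209 were 1.67- and 1.72-fold lower in S/S and 1.75- and 1.72-fold lower in A/A. In the last 500 bases of the GRCm38 transcripts, 58.6% of the 31-base words of Ifi209 are also in Ifi214, so reads may be split between them.

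All counted effectors that act on RNA were over 2-fold lower, 13 of 13 in S/S and 12 of 12 in A/A, with median log2 ratios of -2.95 in S/S and -4.55 in A/A. Ifit1 (ENSMUSG00000034459.9), which binds viral RNA caps and blocks translation, had 16.6 CPM in the S/S TNF library and 3.82 CPM in the A/A TNF library, against 104 CPM in the S/S baseline library and 139 CPM in the A/A baseline library. Its relatives Ifit2 and Ifit3 were 11.7-fold lower (9.41 to 14.6) and 11.6-fold lower (9.54 to 14.2) in S/S. Oasl2 (ENSMUSG00000029561.18), a relative of the oligoadenylate synthetases that switch on RNase L, had 8.33 CPM in the S/S TNF library and 4.22 CPM in the A/A TNF library, against 157 CPM in the S/S baseline library and 120.4 CPM in the A/A baseline library. It was 18.9-fold lower (15.5 to 23.2) in S/S and 28.5-fold lower (18.6 to 44.7) in A/A. The synthetases Oas1a, Oas2 and Oas3 were 5.40-, 10.9- and 9.72-fold lower in S/S, and Oasl1, which in mouse holds down IRF7 translation, was 8.76-fold lower. The kinase PKR, encoded by Eif2ak2, and Samd9l, a restriction factor of translation, were at the mild end, at 2.89- and 3.51-fold lower in S/S. The exonuclease gene Isg20 was 2.18-fold lower in S/S. By the same measure Oas1a shares 70% of its words with Oas1g and Ifit3 24.0% with Ifit3b, so reads may be split within each pair; Oas1g had too few UMIs to count in A/A.

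In the group around ISG15, 6 of 6 were over 2-fold lower in S/S and 6 of 6 in A/A. Isg15 (ENSMUSG00000035692.8) encodes the ubiquitin-like tag itself. It had 104 CPM in the S/S TNF library and 58.0 CPM in the A/A TNF library, against 345 CPM in the S/S baseline library and 244 CPM in the A/A baseline library, which made it 3.32-fold lower (3.08 to 3.57) after TNF in S/S and 4.21-fold lower (3.47 to 5.08) in A/A. Herc6, the ISG15 ligase of the mouse, was 5.30-fold lower (4.16 to 6.78) in S/S and 13.2-fold lower (8.23 to 21.1) in A/A. Parp9 and Dtx3l, which act as a pair of ADP-ribose and ubiquitin enzymes, were 3.86- and 3.06-fold lower in S/S, and Parp14, another ADP-ribosyltransferase, and Trim30a, a regulator of inflammatory signalling, were 2.71- and 4.33-fold lower in S/S.

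Of the inhibitors of virus entry, replication and release, 6 of 7 were over 2-fold lower in S/S and 6 of 7 in A/A, Ly6e being the exception in both. Rsad2 (ENSMUSG00000020641.17), or viperin, makes a chain-terminating nucleotide. It had 41.4 CPM in the S/S TNF library and 3.16 CPM in the A/A TNF library, against 219 CPM in the S/S baseline library and 264 CPM in the A/A baseline library. It was 5.29-fold lower (4.75 to 5.88) in S/S and 83.4-fold lower (54.1 to 134) in A/A. Its genomic neighbour Cmpk2, a nucleotide kinase, was 6.27-fold lower (4.68 to 8.46) in S/S and 17.7-fold lower (10.2 to 31.2) in A/A. The dynamin-like GTPase Mx1 was 10.0-fold lower (8.13 to 12.4) and Mx2 5.16-fold lower (3.87 to 6.92) in S/S. Slfn5 and Bst2 were 2.76- and 3.35-fold lower in S/S. Ly6e, at 793 CPM in the S/S TNF library and 731 CPM in the A/A TNF library, against 1397 CPM in the S/S baseline library and 1097 CPM in the A/A baseline library, was 1.76-fold lower (1.71 to 1.82) in S/S and had a log2 ratio of -0.58 in A/A.

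The widest gap of any member in these cells was at Ifi44 (ENSMUSG00000028037.14), a cytoplasmic protein of uncertain mechanism. It had 2.03 CPM in the S/S TNF library and 1.05 CPM in the A/A TNF library, against 230.0 CPM in the S/S baseline library and 290.2 CPM in the A/A baseline library. Ifi44 was 113-fold lower (78.3 to 170.1) in S/S and 275-fold lower (137 to 647) in A/A, with 29 and 8 UMIs left in the S/S and A/A TNF libraries against 886 and 176 at baseline. Ifi27l2a, the most abundant member here at baseline, had 787 CPM in the S/S TNF library and 464 CPM in the A/A TNF library, against 3729 CPM in the S/S baseline library and 2551 CPM in the A/A baseline library. It was 4.74-fold lower (4.62 to 4.86) in S/S and 5.49-fold lower (5.17 to 5.83) in A/A. Rtp4, a chaperone of membrane receptors, and Xaf1, an antagonist of the apoptosis inhibitor XIAP, were 6.12- and 3.68-fold lower in S/S. Ifi35, which can be released as a danger signal, was 1.88-fold lower (1.63 to 2.16) in S/S and 1.34-fold lower (0.934 to 1.88) in A/A, an interval that spans no difference.

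**Figure D3:**
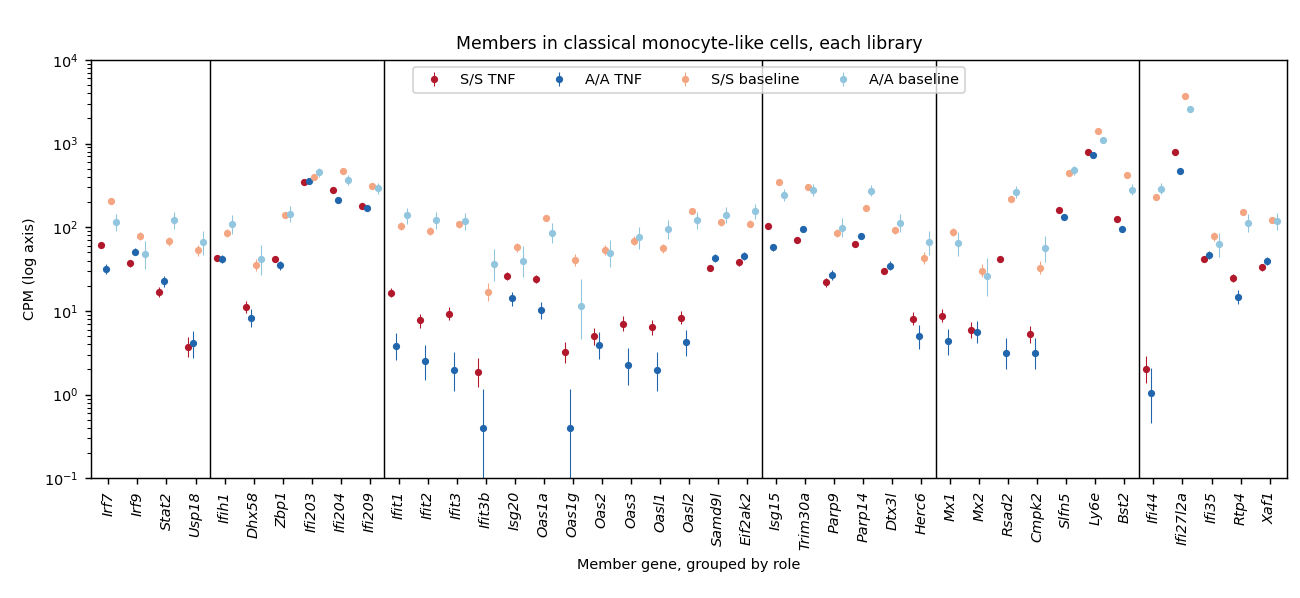
Level of every member (CPM, log axis) in classical monocyte-like cells of the 4 libraries, with exact 95% counting intervals, members grouped by role. Both TNF libraries lie below both baseline libraries for most members, Ifi44 showing the widest gap, while Ifi203 and Ly6e lie close together.

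Several A/A baseline values in monocyte-like cells rest on 1 cell. With 40 cells in that class, 1 barcode held 78.1% of the Rsad2, 64.3% of the Ifit1 and 62.1% of the Oasl1 UMIs, and over 50% for Ifit2, Ifit3b and Cmpk2 as well. Leaving out each gene's highest barcode gave an A/A log2 ratio of -4.12 in place of -5.99 for Rsad2, -3.55 in place of -4.85 for Ifit1, -3.93 in place of -5.02 for Oasl1 and -2.86 in place of -3.78 for Cmpk2; Isg20 was then at -0.51 and no longer over 2-fold lower. No member of the 41 in the S/S baseline or S/S TNF class had over 50% of its UMIs in 1 barcode. From the later of these releases on, Cell Ranger counts intronic reads by default, and whether introns were counted here is not given in the sources used here. Members were therefore also set beside genes of like summed intron length. All genes with 1 to 10 kb of intron had log2 ratios with a median of -0.06 in S/S and 0.28 in A/A, and the members in that range -1.85 in S/S and -2.10 in A/A. With 10 to 100 kb of intron all genes had a median of -0.30 in S/S and -0.10 in A/A, and the members -2.14 in S/S and -2.19 in A/A. Genes with over 100 kb of intron, none of them a member, had medians of -1.41 in S/S and -1.32 in A/A. Members with and without the promoter motif were both low: in S/S, 13 of 14 with the motif and 12 of 15 without it were over 2-fold lower.

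**Figure D4:**
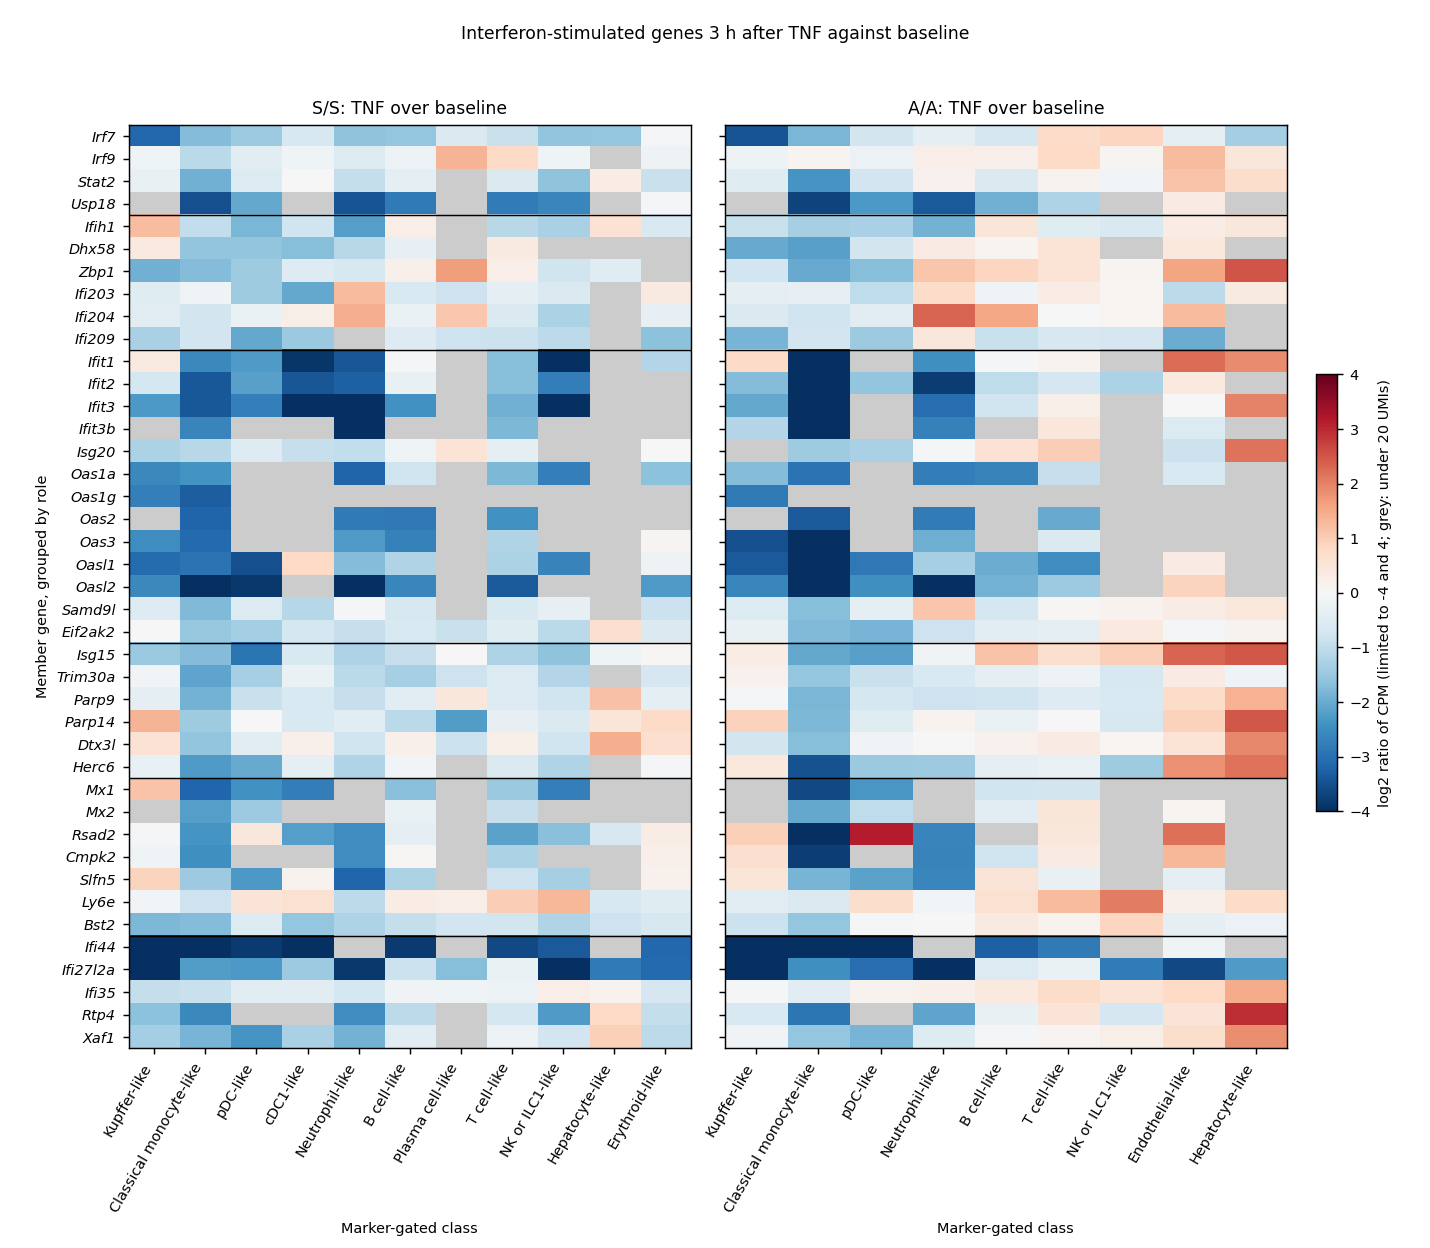
log2 ratio of CPM after TNF over baseline (colour, limited to −4 and 4, grey where the pair held under 20 UMIs) for every member and class with at least 30 cells in both libraries, S/S on the left and A/A on the right. The classical monocyte-like columns are blue throughout apart from Irf9, and Oas1g with too few UMIs, in A/A, while the A/A endothelial-like and hepatocyte-like columns are mostly red.

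Kupffer-like cells, the resident macrophages, had fewer members over 2-fold lower than classical monocyte-like cells. In S/S 16 of 37 counted members were over 2-fold lower, against 13.8% of all genes, and 3 were over 2-fold higher, against 23.3%. In A/A 13 of 36 were over 2-fold lower, against 14.5%, and none over 2-fold higher, against 17.0%. Markers of other cells moved with TNF in this class: neutrophil markers summed to 497 CPM in the S/S TNF library and 970.4 CPM in the A/A TNF library, against 238 CPM in the S/S baseline library and 117 CPM in the A/A baseline library, and hepatocyte markers to 903 and 1161 CPM in the S/S and A/A TNF libraries, against 438 and 348 CPM in the S/S and A/A baseline libraries. Their part in the result was not tested. Ifi27l2a had 117 CPM in the S/S TNF library and 28.7 CPM in the A/A TNF library, against 2634 CPM in the S/S baseline library and 1805 CPM in the A/A baseline library. Irf7 had 37.6 CPM in the S/S TNF library and 32.2 CPM in the A/A TNF library, against 339.7 CPM in the S/S baseline library and 364 CPM in the A/A baseline library. Both TNF libraries lay far below both baseline libraries for these genes, as they did for Ifi44, which was 30.4-fold lower (11.4 to 114) in S/S and 62.0-fold lower (26.2 to 193) in A/A. Other members went the opposite way: Parp14 was 2.60-fold higher (1.77 to 3.91) in S/S and 1.90-fold higher (1.42 to 2.55) in A/A, and Slfn5, a Schlafen protein, was 1.85-fold higher (1.42 to 2.44) in S/S and 1.41-fold higher (1.16 to 1.71) in A/A. Isg15 split by genotype, at 60.2 CPM in the S/S TNF library and 90.3 CPM in the A/A TNF library, against 169 CPM in the S/S baseline library and 73.0 CPM in the A/A baseline library; it was 2.80-fold lower (2.09 to 3.78) after TNF in S/S, and in A/A the ratio was 1.24 (0.925 to 1.67). In the S/S TNF library 1 Kupffer-like barcode held 85.2% of the Ifit1, 77.8% of the Ifit2, 79.2% of the Ifit3 and 76.7% of the Rsad2 UMIs; without each gene's highest barcode the log2 ratios of Ifit2, Ifit3 and Rsad2 were -2.49, -4.24 and -1.96.

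In pDC-like cells, the type specialised in making type I interferon, 22 of 34 members were over 2-fold lower in S/S, against 19.6% of all genes, and none higher, against 4.90%. In A/A 18 of 32 were over 2-fold lower, against 16.4%, and 1 higher, against 6.56%. Neutrophil markers in these cells summed to 1092 CPM in the S/S TNF library and 657 CPM in the A/A TNF library, against 54.0 CPM in the S/S baseline library and 20.2 CPM in the A/A baseline library, and their part in the result was not tested. Ifi44 had 7.86 CPM in the S/S TNF library and 1.30 CPM in the A/A TNF library, against 124 CPM in the S/S baseline library and 126 CPM in the A/A baseline library. Ifi27l2a was 4.93-fold lower (4.53 to 5.37) in S/S and 8.38-fold lower (7.51 to 9.37) in A/A, and Slfn5 was 5.13-fold lower (3.68 to 7.31) in S/S and 4.70-fold lower (3.27 to 6.91) in A/A. Irf7, which these cells hold ready for interferon production, had 76.6 CPM in the S/S TNF library and 78.1 CPM in the A/A TNF library, against 212 CPM in the S/S baseline library and 131 CPM in the A/A baseline library, or 2.77-fold lower (2.31 to 3.34) in S/S and 1.67-fold lower (1.42 to 1.98) in A/A. The abundant Ly6e went the other way, at 1.42-fold higher (1.36 to 1.48) in S/S and 1.64-fold higher (1.58 to 1.71) in A/A. Rsad2 was the member over 2-fold higher in A/A, at 7.77 CPM after TNF against 0 UMIs at baseline, and 1 barcode held 54.2% of its UMIs.

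Neutrophil-like cells are blood-borne cells that enter the liver in inflammation, and the class numbered 1083 and 1364 cells in the S/S and A/A TNF libraries against 138 and 121 at baseline. Their own 12 markers summed to 157271 CPM in the S/S TNF library and 168750.3 CPM in the A/A TNF library, against 68396 and 43505 CPM at baseline, so the neutrophils compared were not alike in other genes, and the part of this in the result was not tested. In S/S 24 of 36 members were over 2-fold lower, against 37.7% of all genes, and in A/A 17 of 37, against 31.3%. Over 2-fold higher were 2 members in S/S, Ifi203 and Ifi204, against 13%, and 3 in A/A, against 16.3%. The interval of the Ifi203 ratio, 0.739 to 23.6, spans no difference. Oasl2 had 20.9 CPM in the S/S TNF library and 7.61 CPM in the A/A TNF library, against 577 CPM in the S/S baseline library and 561 CPM in the A/A baseline library. Ifi27l2a had 123 CPM in the S/S TNF library and 47.5 CPM in the A/A TNF library, against 1803 CPM in the S/S baseline library and 1383 CPM in the A/A baseline library. These genes were far lower after TNF in both genotypes, and so were Rsad2, at 5.76-fold lower (4.70 to 7.03) in S/S and 6.45-fold lower (5.22 to 7.94) in A/A, and Slfn5, at 9.28-fold lower (7.65 to 11.3) in S/S and 6.28-fold lower (4.79 to 8.18) in A/A. Ifi204 was the clear opposite, 2.79-fold higher (2.07 to 3.86) in S/S and 5.15-fold higher (3.69 to 7.41) in A/A. Samd9l was 2.15-fold higher (1.68 to 2.79) in A/A and stood at 148 CPM after TNF against 152 CPM at baseline in S/S.

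T cell-like and NK or ILC1-like cells had more members over 2-fold lower in S/S than in A/A. In S/S T cell-like cells 16 of 40 members were over 2-fold lower after TNF, against 19.7% of all genes, and none higher, against 3.42%. In A/A T cell-like cells 5 of 40 were lower, against 16.7%, and 1 higher, against 5.31%. The corresponding counts in NK or ILC1-like cells were 22 of 32 lower in S/S, against 19.7%, and 3 of 23 lower in A/A, against 18.7%, with 1 higher in S/S, against 3.93%, and 1 higher in A/A, against 12.2%. The minimum of 20 UMIs is on the pair, so a member can reach it through its baseline library alone, and these 2 sets of members differ. With at least 100 UMIs in the pair, 6 were lower in S/S. Among the 23 members counted in both genotypes, the S/S log2 ratio was lower than that of A/A by at least 1 for 10, against 11.5% of all genes. It was higher by at least 1 for 0, against 4.65%. Isg15 in T cell-like cells had 49.5 CPM in the S/S TNF library and 69.9 CPM in the A/A TNF library, against 117 CPM in the S/S baseline library and 44.2 CPM in the A/A baseline library. Irf7 had 28.8 CPM in the S/S TNF library and 37.8 CPM in the A/A TNF library, against 53.7 CPM in the S/S baseline library and 22.4 CPM in the A/A baseline library. For both genes the S/S baseline library was the highest of the 4 and the A/A baseline library the lowest, so that Isg15 was 2.37-fold lower (1.97 to 2.87) after TNF in S/S and 1.58-fold higher (1.37 to 1.83) in A/A. In NK or ILC1-like cells Isg15 was 3.16-fold lower (1.88 to 5.64) in S/S and 1.99-fold higher in A/A, and Irf7 was 3.07-fold lower (1.80 to 5.59) in S/S and 1.85-fold higher (1.05 to 3.45) in A/A. Ifit1 was at 0 UMIs after TNF in S/S NK or ILC1-like cells against 79 at baseline, or at least 13.6-fold lower when set against a floor of 3 UMIs in the library.

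Ly6e, known as a marker of immature thymocytes, was higher after TNF in both genotypes: it had 1079 CPM in the S/S TNF library and 1470.3 CPM in the A/A TNF library, against 544 CPM in the S/S baseline library and 611 CPM in the A/A baseline library in T cell-like cells. In NK or ILC1-like cells it was 2.52-fold higher (2.28 to 2.77) in S/S and 4.15-fold higher (3.61 to 4.78) in A/A. The log2 ratio by TNF was lower in S/S than in A/A for 37 of 40 members in T cell-like cells and for 21 of 23 in NK or ILC1-like cells, where 59.8% and 58.8% of all genes were lower. It was also lower for 13 of 15 members in hepatocyte-like cells, against 62.5% of all genes, for 29 of 36 in neutrophil-like cells, against 60.5%, for 23 of 32 in pDC-like cells, against 65.0%, and for 24 of 36 in B cell-like cells, against 59.2%. In Kupffer-like cells it was lower for 15 of 35, against 44.4%. In classical monocyte-like cells it was lower for 9 of 40, against 59.8% of all genes. The order of the genotypes was not stable there, and the A/A baseline class had 40 cells. Over the alternatives the median of the members ran from -2.28 to -0.71 in A/A and from -1.99 to -1.57 in S/S. Per cell, members without Ly6e, Bst2 and Ifi27l2a had a median of 37.5 of 10000 UMIs at baseline and 13.3 after TNF in S/S. In A/A these medians were 23.2 and 13.3. The differences between the genotypes in all these classes were not tested, and both ratios of a genotype rest on its 2 libraries. B cell-like cells had 13 of 39 members over 2-fold lower in S/S, against 22.0% of all genes, and 6 of 36 in A/A, against 20.7%. Over 2-fold higher were 0 in S/S, against 4.04%, and 2 in A/A, against 9.62%.

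In endothelial-like cells several antiviral members were higher after TNF in A/A, while the count over all members lay near the background; the S/S baseline library had 28 such cells and was not compared. In A/A 9 of 37 members were over 2-fold higher, against 23.0% of all genes, and 3 over 2-fold lower, against 17.5%. Without each gene's highest barcode 14 were over 2-fold higher. The median log2 ratio was 0.33 for members and 0.13 for all genes. Without Ly6e, Bst2 and Ifi27l2a, members summed to 2581 CPM in the A/A TNF library against 1786 CPM in the A/A baseline library. Per cell, they made up a median of 15.6 of 10000 UMIs after TNF and 15.3 at baseline. The middle cell was thus nearly unchanged. Isg15 had 169.8 CPM in the A/A TNF library against 33.1 CPM in the A/A baseline library, 5.13-fold higher (3.27 to 8.55). Rsad2 had 245 CPM against 52.3 CPM, 4.68-fold higher (3.27 to 6.96). Ifit1 was 5.05-fold higher (2.43 to 12.6) and Herc6 3.75-fold higher (1.95 to 8.26). The transcription factor genes were higher too, Irf9 by 2.44-fold (1.57 to 4.03) and Stat2 by 2.22-fold (1.39 to 3.78). Ifi27l2a went against the rest at 13.4-fold lower (9.31 to 19.3), and Ifi203 was 2.06-fold lower (1.70 to 2.48). Markers of neutrophils summed to 738 CPM in the A/A TNF class against 115 CPM in the A/A baseline class. Neutrophil-like cells had 186 CPM of Isg15 in the A/A TNF library and 203 CPM in the A/A baseline library. The part of neutrophil RNA in the result was not tested.

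Hepatocyte-like barcodes were shallow, and 23 members in A/A and 16 in S/S had enough UMIs. In A/A 12 of 23 were over 2-fold higher after TNF, against 18.9% of all genes, and 2 lower, against 6.59%. In S/S 2 of 16 were higher, against 16.6%, and 2 lower, against 5.81%. The UMI minimum is on the pair, so a member can reach it through its TNF library alone, and these 2 sets of members differ. With at least 100 UMIs in the pair, 3 were higher in A/A. Among the 15 members counted in both genotypes, the S/S log2 ratio was lower than that of A/A by at least 1 for 6, against 15.6% of all genes. It was higher by at least 1 for 0, against 9.69%. Isg15 had 112 CPM in the S/S TNF library and 166 CPM in the A/A TNF library, against 126 CPM in the S/S baseline library and 29.2 CPM in the A/A baseline library. Rtp4 had 63.2 CPM in the S/S TNF library and 101 CPM in the A/A TNF library, against 36.0 CPM in the S/S baseline library and 12.3 CPM in the A/A baseline library. Zbp1 had 42.1 CPM in the S/S TNF library and 49.2 CPM in the A/A TNF library, against 59.2 CPM in the S/S baseline library and 7.85 CPM in the A/A baseline library. The A/A baseline library was the lowest of the 4 for these genes, and in A/A Isg15 was 5.70-fold higher (3.76 to 8.98), Rtp4 8.22-fold higher (4.41 to 17.0) and Zbp1 6.27-fold higher (2.83 to 16.4) after TNF. Parp14 was 6.04-fold higher (2.99 to 13.8) in A/A. Ifi27l2a was again low after TNF, 7.35-fold lower (4.25 to 13.4) in S/S and 5.37-fold lower (2.34 to 14.4) in A/A. In the A/A TNF library 1 barcode held 85.7% of the Ifit3 and 62.5% of the Ifit1 UMIs. RNA of other cells moved with these values: neutrophil markers, 11 of 12 seen in the A/A TNF class and 9 of 12 in the A/A baseline class, summed to 1861 CPM in the S/S TNF library and 3047 CPM in the A/A TNF library, against 1518 and 125 CPM in the S/S and A/A baseline libraries. Neutrophil-like cells had 186 CPM of Isg15 in the A/A TNF library. The part of neutrophil RNA in the result was not tested.

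At baseline, S/S and A/A cells were set side by side in 8 classes, both made with the same Cell Ranger version. The libraries still differed in make-up: ribosomal RNA took 6.19% of the UMIs in S/S and 16.7% in A/A. Short genes were higher in S/S than long ones: all genes with 1 to 10 kb of intron stood at a median of 0.34 on the log2 scale in T cell-like, 0.45 in NK or ILC1-like and 0.52 in hepatocyte-like cells, and those with over 100 kb -0.14, -0.36 and -0.36. The members with 1 to 10 kb had medians of 0.67, 0.94 and 1.35 in the same classes. The part of these gaps in the counts was not tested. In T cell-like cells 11 of 40 members were over 2-fold higher in S/S, against 6.77% of all genes; the counts were 11 of 32 in NK or ILC1-like cells, against 9.07%, 8 of 34 in neutrophil-like cells, against 7.92%, and 6 of 14 in hepatocyte-like cells, against 16.9%. Counts were smaller in pDC-like cells, 4 of 35 against 3.05%, and in B cell-like cells, 4 of 39 against 4.70%. They were smaller as well in Kupffer-like cells, 2 of 38 against 6.37%, and in classical monocyte-like cells, 1 of 41 against 11.4%. A stricter marker gate gave none in pDC-like and 2 in neutrophil-like cells. Over all alternatives the lowest count was 1 in hepatocyte-like, 4 in NK or ILC1-like and 5 in T cell-like cells. Over 2-fold lower in S/S were 0 members in T cell-like cells, against 2.42%, in NK or ILC1-like cells, against 3.50%, in neutrophil-like cells, against 3.03%, in hepatocyte-like cells, against 10.6%, and in pDC-like cells, against 1.53%. B cell-like cells had 1, against 1.79%, classical monocyte-like cells 1, against 3.79%, and Kupffer-like cells 3, against 16.2%. In the middle T cell-like cell, members without Ly6e, Bst2 and Ifi27l2a made up 13.7 of 10000 UMIs in S/S and 12.0 in A/A. The values were 11.2 and 10.8 in NK or ILC1-like, 26.1 and 19.6 in neutrophil-like, and 4.46 and 0 in hepatocyte-like cells. The top 10% of cells held 43.6% of the member UMIs in S/S and 29.1% in A/A NK or ILC1-like cells. The shares were 42.2% and 31.3% in T cell-like, 50.6% and 43.1% in neutrophil-like, and 39.7% and 52.1% in hepatocyte-like cells. Isg15, Ifi27l2a and Bst2 were higher in S/S in all 8 classes. Isg15 was 2.66-fold higher (2.31 to 3.06) in T cell-like, 3.95-fold higher (2.21 to 7.66) in NK or ILC1-like, 2.99-fold higher (2.32 to 3.88) in pDC-like and 2.57-fold higher (2.08 to 3.20) in neutrophil-like cells. Ifi27l2a was 4.45-fold higher (2.88 to 6.99) in hepatocyte-like and 3.28-fold higher (2.11 to 5.33) in NK or ILC1-like cells. Among effectors, Ifit3 was 4.92-fold higher (3.69 to 6.67) in T cell-like cells, at 46.6 CPM in S/S against 9.46 CPM in A/A, and 6.64-fold higher (4.50 to 10.1) in neutrophil-like cells, where 1 barcode held 61.5% of its S/S UMIs. The counts in Kupffer-like cells were below the shares of all genes in both directions. Named by size alone, Ifih1 was 3.44-fold lower (1.86 to 6.85), Dtx3l 2.44-fold lower (1.58 to 3.88) and Ifi44 2.09-fold lower (1.61 to 2.72) in S/S, while Rsad2 was 2.38-fold higher (1.40 to 4.14) and Isg15 2.31-fold higher (1.73 to 3.10). By intron length the members there lay near all genes, with medians of 0.37 against 0.26 at 1 to 10 kb and -0.36 against -0.28 at 10 to 100 kb.

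Red-cell RNA moved with the genotype in every class, which bears on the 3 members that erythroid-like cells hold in bulk. The 10 erythroid markers summed to 1310.0 CPM in S/S and 116 CPM in A/A baseline T cell-like cells, to 1773 and 20.4 CPM in Kupffer-like cells, and to 1953 and 14.2 CPM in pDC-like cells; 10 of 10 were seen in S/S and 7 of 10 in A/A T cell-like cells. At the ratio of these genes to the markers in the library's own erythroid-like cells, RNA at that level goes with, in S/S baseline T cell-like cells, 7.63 of the 117 CPM of Isg15 and 6.11 of the 27.8 CPM of Rsad2. With the ratio taken to markers other than globins these parts were 12.4 CPM of Isg15 and 9.96 CPM of Rsad2. In S/S baseline Kupffer-like cells it goes with 10.3 of 169 CPM of Isg15 and 8.26 of 53.3 CPM of Rsad2, or 25.2 CPM of Isg15 and 20.2 CPM of Rsad2 without globins. In hepatocyte-like cells it goes with 13.1 of 126 CPM of Isg15, or 30.3 CPM without globins. In pDC-like cells it goes with 9.10 of 12.1 CPM of Rsad2, 75.5% of the level, or 62.1% without globins. The part of this RNA in the differences was not tested. Ifi27l2a had 164 CPM and Irf7 34.7 CPM in S/S baseline erythroid-like cells; Irf7 was 2.40-fold higher (1.96 to 2.95) in S/S T cell-like cells at baseline.

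After TNF, classical monocyte-like cells differed between the genotypes. In all, 9 of 41 members were over 2-fold higher in S/S, against 4.46% of all genes, and none was over 2-fold lower, against 0.961%; with 10 CPM added in place of 1, 1 member was over 2-fold. Rsad2 had 41.4 CPM in S/S against 3.16 CPM in A/A, 13.1-fold higher (8.71 to 20.6). Ifit1 was 4.34-fold higher (2.95 to 6.63), Ifit3 4.71-fold higher (2.76 to 8.65) and Ifit2 3.08-fold higher (1.88 to 5.30). At baseline the same genes had not stood higher in S/S, with ratios of S/S to A/A of 0.829 for Rsad2 and 0.748 for Ifit1. In the A/A baseline class 1 barcode held over 50% of the UMIs of each of these 2 genes. Without each gene's highest barcode in both baseline libraries, the log2 ratio was 1.66 for Rsad2 and 0.86 for Ifit1. Erythroid markers summed to 1321 CPM in S/S and 18.6 CPM in A/A monocyte-like cells after TNF, and at the erythroid ratio they go with 7.49 of the 41.4 CPM of Rsad2 and 7.86 of the 104 CPM of Isg15.

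Endothelial-like cells leaned the other way after TNF. Members had a median of -0.46 in S/S relative to A/A, where all genes had -0.10. Of 38 members 4 were over 2-fold lower, against 3.78% of all genes, and 1 higher, against 3.64%. With cells thinned to 1000 UMIs or the mean over cells, 2 were lower. The classes differed in depth, with a median of 5059 UMIs per cell in S/S and 2702 in A/A. Per cell, members without Ly6e, Bst2 and Ifi27l2a made up a median of 13.3 of 10000 UMIs in S/S and 15.6 in A/A. The part of depth in the result was not tested. Herc6 was 3.09-fold lower (2.43 to 3.98), Ifit2 2.53-fold lower (2.00 to 3.23), Ifit1 2.48-fold lower (2.00 to 3.10) and Ifit3 2.13-fold lower (1.58 to 2.92) in S/S. With cells thinned to 1000 UMIs the direction of Ifit2 turned, to a log2 ratio of 0.11. Ifi27l2a was the opposite, 3.53-fold higher (2.59 to 4.88), as it was in Kupffer-like cells at 4.07-fold higher (2.86 to 5.89) and in neutrophil-like cells at 2.59-fold higher (2.29 to 2.94). Ifi27l2a was lower in S/S after TNF in 1 of the 12 classes counted, plasma cell-like cells. In T cell-like cells no member was over 2-fold apart in either direction, against 3.27% of all genes higher and 2.56% lower. Kupffer-like cells had 4 of 31 members over 2-fold higher, against 5.57%, and 1 lower, against 7.40%. In pDC-like cells the counts were 5 of 27 higher, against 1.84%, and 0 lower, against 2.17%. Erythroid markers summed there to 3203 CPM in S/S and 20.1 CPM in A/A; at the erythroid ratio they go with 19.1 CPM of Isg15 in S/S, where 11.3 CPM was measured, or 10.8 CPM without globins. Neutrophil-like cells had 2 of 37 higher, against 2.16%, and 0 lower, against 2.02%. Over 2-fold lower were 4 of 27 members in B cell-like cells, against 3.90%, 2 of 20 in NK or ILC1-like cells, against 4.22%, and 5 of 21 in plasma cell-like cells, against 10.6%. In cDC1-like cells 4 of 26 were over 2-fold higher, against 2.47%, and 1 lower, against 7.12%.

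**Figure D5:**
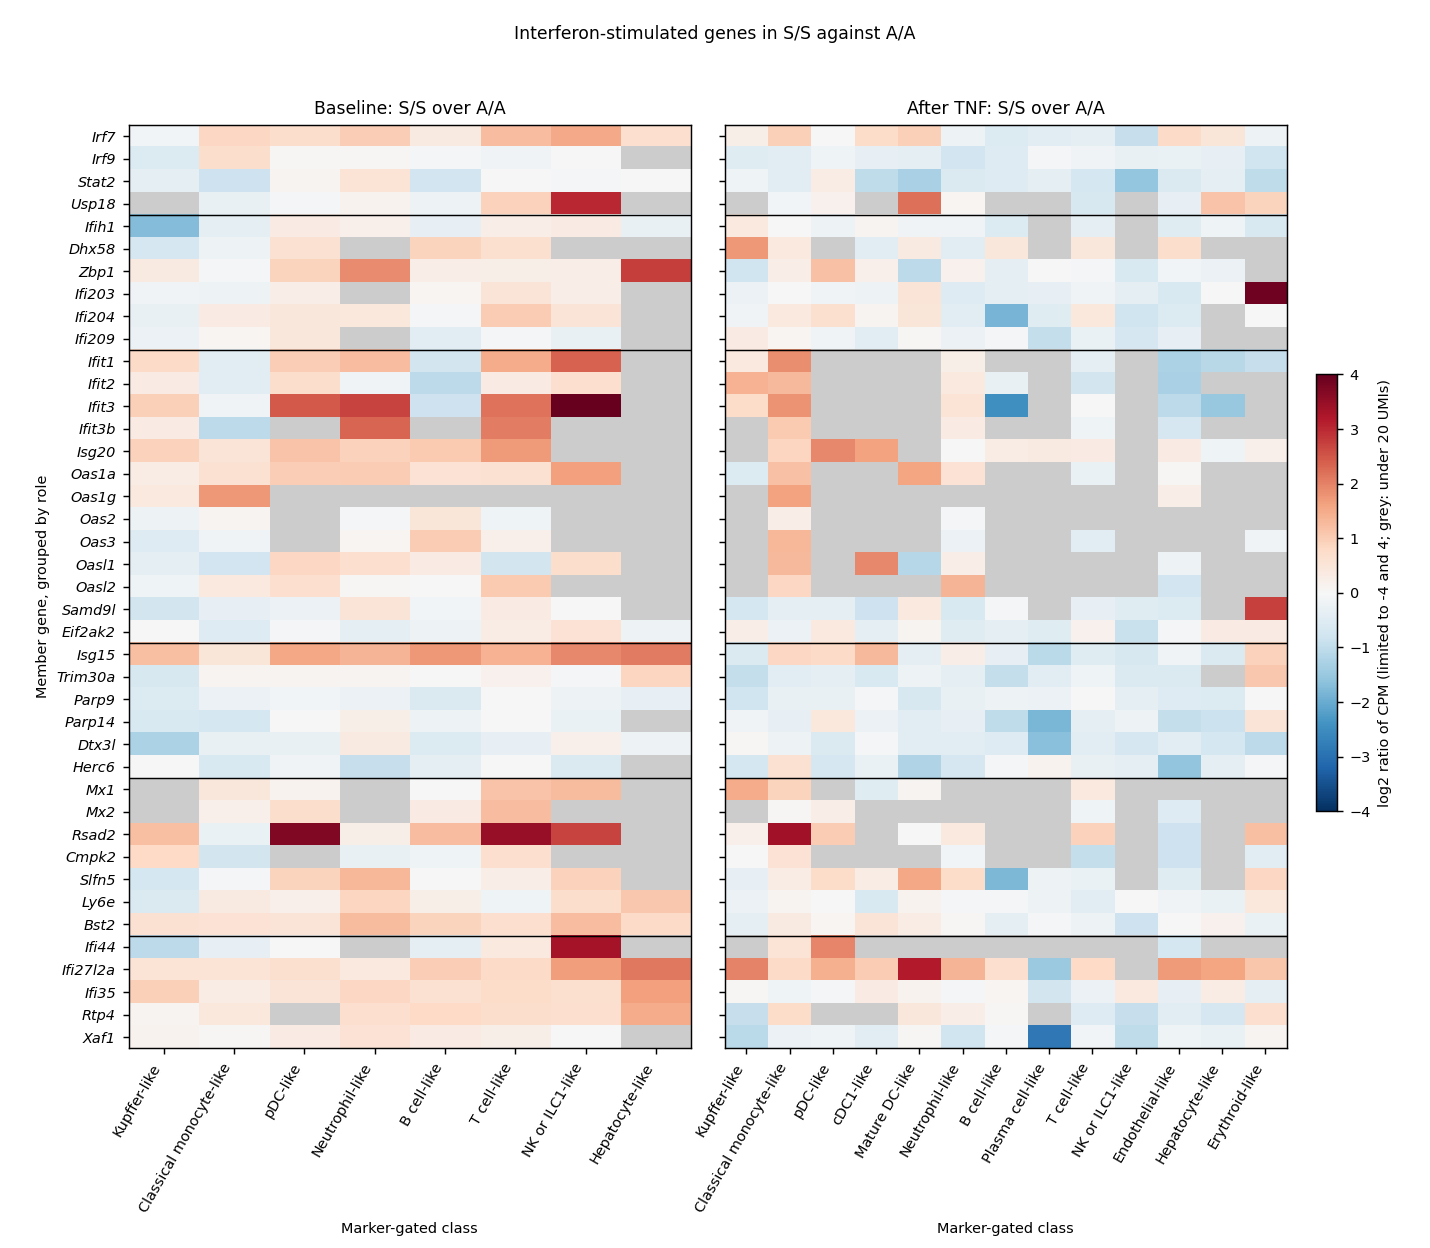
log2 ratio of CPM in S/S over A/A (colour, limited to −4 and 4, grey where the pair held under 20 UMIs) for every member and class, at baseline on the left and after TNF on the right. At baseline the Isg15 and Ifi27l2a are red in all 8 columns, and after TNF the endothelial-like column is mostly blue.

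The genes upstream of the members were counted from lists of the pathway. Of the interferon ligands, few UMIs were seen: Ifnb1 had 1 in each TNF library and 0 in each baseline library, Ifnab 2 in the A/A baseline library, Ifnk 1 in the A/A TNF library and 3 in the S/S baseline library, and Ifnz 1 in the A/A TNF library. Of the type III ligands, Ifnl3 had 1 UMI in the S/S TNF library. The numbered Ifna genes of the list, Ifne and Ifnl2 had none. Ifng, the type II interferon, had 160 and 493 UMIs in the S/S and A/A TNF libraries and 453 and 401 in the S/S and A/A baseline libraries. T cell-like and NK or ILC1-like cells held 1313 of these UMIs. The totals are not scaled to the number of such cells, so they do not compare the libraries. Scaled within a class, the log2 ratio of Ifng in S/S over A/A after TNF was 0.17 in T cell-like and -0.53 in NK or ILC1-like cells. Of the receptors and proximal signalling genes, 4 of 14 were over 2-fold lower and 2 higher in S/S classical monocyte-like cells, against 23.0% and 10.6% of all genes, and 5 lower and 2 higher of 14 in A/A, against 20.6% and 17.7%. Socs3, a feedback inhibitor of cytokine receptors, was 2.21-fold higher in S/S and 3.26-fold higher in A/A. In A/A endothelial-like cells 8 of 14 receptor and signalling genes were over 2-fold higher, against 23.0% of all genes, and none lower, with Jak2 5.84-fold higher. Of the sensors and regulators of interferon induction, 9 of 17 in S/S and 8 of 16 in A/A monocyte-like cells were over 2-fold lower, and 7 of 15 were over 2-fold higher in A/A endothelial-like cells.

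Other interferon-stimulated genes, many of them shared with interferon gamma and TNF, were counted in the same way. In classical monocyte-like cells 43 of 63 were over 2-fold lower and 3 higher in S/S, and 43 of 61 lower and 4 higher in A/A, where 23.0% of all genes were lower in S/S and 20.6% in A/A; Epsti1 was 13.3-fold lower in S/S and 14.9-fold lower in A/A. In A/A endothelial-like cells 28 of 61 were over 2-fold higher and 5 lower, against 23.0% and 17.5% of all genes. Cxcl10, a chemokine for activated T cells, had 1335 CPM there after TNF against 13.9 CPM at baseline, and the guanylate-binding protein gene Gbp5 255 against 17.4 CPM. In A/A hepatocyte-like cells 20 of 39 were over 2-fold higher and 2 lower, against 18.9% and 6.59% of all genes, and the immunity-related GTPase gene Ifi47 had 1168 CPM after TNF against 7.85 CPM at baseline. In S/S hepatocyte-like cells Ifi47 had 491 CPM against 25.7 CPM. Ifi47 was far higher after TNF in both genotypes.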

How the data were processed

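Single liver cells of 2-month-old mice were counted with a droplet 3′ kit in 4 libraries, each of cells pooled from 2 mice. The deposited values are raw UMI counts per gene and barcode, per the file headers. The submitters' processing notes name Cell Ranger 6.1.2 for both TNF libraries, 7.1.0 for both baseline libraries, and mm39. Whether intronic reads were counted is not given in the sources used here. The TNF files held no barcode under 250 genes, while the baseline files went down to 67 genes in S/S and 50 in A/A.

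Cells needed 300 genes or more and no more than 20% of UMIs from mitochondria. Each cell was put into 1 of 18 classes, from 175 markers that hold no member, where at least 3 markers were seen and the leading class scored 1.5 times the next. Barcodes that met no class numbered 16.5% in S/S TNF, 15.0% in A/A TNF, 13.7% in S/S baseline and 9.96% in A/A baseline. No doublet caller was run; a barcode with markers of 2 classes at a like level met no class. Pairs of libraries shared 4 to 12 barcodes. UMIs were summed per class and library and scaled to CPM. Ratios are log2 of CPM plus 1, and classes needed 30 cells and members 20 UMIs in the pair. Folds carry exact binomial 95% intervals of the UMI ratio. With 1 library per group there is no test. The ratio code was tested on simulated data.

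All 41 members are accounted for. In each class, members were named by the largest absolute log2 ratio, up to 5 each way, and pathway genes up to 3 each way; further members are named to complete a role group and were chosen after their values were seen. The members, lists and rules were chosen with earlier results of these data known. Alternatives changed the pseudocount, UMI minimum, cell filter, marker gate, denominator, centring, depth, weight of cells and single barcodes. The work used pandas 2.3.3, numpy 2.4.6, matplotlib 3.10.9 and scipy 1.17.1 in Python 3.11.15. 1 pathway gene outside the members is not reported here.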

Additional observations from a re-analysis of the deposited data

Results flagged for a closer look

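The summed level of the members moved one way after TNF in S/S and the other way in A/A in 3 classes whose counting intervals lay on opposite sides of 0. In T cell-like cells the log2 ratio of the sum, TNF over baseline, was -0.15 in S/S and 0.39 in A/A. In NK or ILC1-like cells it was -0.18 in S/S and 0.55 in A/A. In hepatocyte-like cells it was -0.40 in S/S and 0.83 in A/A. In B cell-like cells it was -0.28 in S/S and 0.025 in A/A, where the A/A interval, -0.019 to 0.068, spans 0. Ly6e, Bst2 and Ifi27l2a weigh on these sums. Without them the ratio was -0.60 in S/S and 0.07 in A/A in T cell-like cells, but -0.99 in S/S and -0.14 in A/A in NK or ILC1-like cells and 0.14 in S/S and 1.38 in A/A in hepatocyte-like cells, so the directions no longer differ in NK or ILC1-like and hepatocyte-like cells. Each ratio rests on 1 library per group, and the difference between the genotypes was not tested.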

How the results depend on the processing

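No paired analysis was possible because each group has 1 library, and no library could be left out. In 411 cases, each 1 member in 1 class and comparison, the ratio was over 2-fold and its interval did not span 0. The same member can be counted in many of these cases, and the comparisons share libraries. Adding 10 CPM cannot turn a direction, and centring on the median gene or by intron length shifted members by less than the 2-fold cut. Directions kept under these 3 alternatives therefore tell nothing. Still over 2-fold were 291 with 10 CPM added and 372 with centring on the median gene. With centring by intron length, an alternative chosen after seeing the data, 357 were. Totals without ribosomal RNA, mitochondrial and globin transcripts rescale all genes of a class alike. With them 411 of 411 kept their direction and 395 were still over 2-fold. Another UMI minimum leaves each ratio as it is, so it cannot turn a direction either. Cases left to compare were 401 with the stricter cell filter, 340 with the stricter marker gate, 176 with thinning and 384 without the highest barcode. The direction of Ifit2 for S/S against A/A after TNF turned in endothelial-like cells (log2 0.11 with cells thinned to 1000 UMIs). It also turned in Kupffer-like cells (-0.26 without the highest barcode). Xaf1 turned by TNF in S/S cDC1-like cells (0.047 with the mean over cells). Oasl1 turned for S/S against A/A after TNF in mature dendritic cell-like cells (0.19 without the highest barcode). No other direction turned among the cases left.

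Counts of members over 2-fold moved as follows. With 10 CPM added they were 10 lower by TNF in A/A pDC-like and 8 in S/S T cell-like cells, 2 and 5 higher in S/S at baseline in pDC-like and T cell-like cells, and 1 higher in S/S after TNF in monocyte-like cells. With at least 100 UMIs per pair they were, lower by TNF, 7 in S/S Kupffer-like, 10 in S/S pDC-like and 6 in S/S NK or ILC1-like cells, and 4 in A/A Kupffer-like, 22 in A/A monocyte-like and 10 in A/A pDC-like cells, with 3 higher in A/A hepatocyte-like cells. At baseline 1, 5 and 4 were then higher in S/S in pDC-like, neutrophil-like and NK or ILC1-like cells. A stricter gate gave 0 in pDC-like and 2 in neutrophil-like cells at baseline, and no value for A/A monocyte-like cells, of which under 30 were left. Thinned to 1000 UMIs, the counts lower by TNF were 6 in S/S pDC-like and 7 in S/S NK or ILC1-like cells, and 7, 5 and 4 in A/A Kupffer-like, monocyte-like and pDC-like cells, with 5 higher in A/A hepatocyte-like cells. At baseline 1 and 5 were higher in S/S in pDC-like and NK or ILC1-like cells, and after TNF 5 were higher in monocyte-like and 2 lower in endothelial-like cells. The mean over cells gave 8 higher at baseline in pDC-like and 2 lower after TNF in endothelial-like cells, and leaving out the highest barcode 14 higher by TNF in A/A endothelial-like cells. Thinning and the higher minimum leave fewer members to count. The cause of the other shifts was not tested.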
